A study of Arabidopsis thaliana with 6 samples.

Results

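Vesicle trafficking and actin-membrane linker genes were described in cotyledons of Arabidopsis thaliana that had been induced to form vascular cells. These are the genes whose symbol in the platform annotation begins with PRA1, SEC, SYP, VAMP, VTI1, VPS, RAB or EXO70, or with NET and a digit. A gene was taken only where a probe set is paired with it alone, and the brightest probe set over all 6 arrays would stand for a gene with several. In all, 47 of 16550 singly named genes met the rule, and each of the 47 has 1 probe set paired with it alone. PRA1.A2, PRA1.H and VPS46.2 each have a further probe set shared with another gene, which was left out. The 47 are 14 PRA1 genes, 13 SEC genes, 10 VPS genes, 9 NET genes and 1 RAB gene. No singly paired symbol begins with SYP, VAMP, VTI1 or EXO70, so most SNARE proteins and one exocyst subunit family are not analysed here.

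Wildtype (Col-0) was compared with the apl mutant on 3 arrays each. APL, a transcription factor of the MYB class, is needed for phloem to form, and the labels name the mutant line only as apl, without its allele. In both genotypes, cotyledons of seedlings grown for 6 days were kept for 72 h in a medium holding bikinin at 10 µM, an activator of brassinosteroid signalling, with the cytokinin kinetin at 0.25 mg/L and the auxin analogue 2,4-D at 1.25 mg/L. No probe set is paired with APL, so the targeted gene could not be used to check the labels.

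Membrane vesicles carry proteins, lipids and wall material between the endoplasmic reticulum, Golgi, endosomes, vacuole and plasma membrane. Rab GTPases mark the membranes, tethers such as the exocyst hold a vesicle at its target, and SNARE and Sec1/Munc18 proteins fuse it. ESCRT complexes sort membrane proteins into endosomes bound for the vacuole, and NET proteins bind actin filaments and anchor them to membranes. Secretion delivers the wall of xylem vessels, while differentiating sieve elements of the phloem dismantle much of their membrane system.

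None of the 47 genes passed the test between genotypes. limma called 0 of 47 higher in apl and 0 of 47 lower (Benjamini-Hochberg adjusted p under 0.05 over all 38408 probe sets), where 0.0781% of all probe sets were called higher and 0.526% lower. With so few calls in all, 0 of 47 lies near the background. At an unadjusted p under 0.05, limma gave 0 higher and 1 lower, PRA1.A1, against 4.66% and 4.34% of all probe sets. With the replicate block, limma again called 0 and 0 (smallest adjusted p 0.169), where 0.211% and 0.885% of all probe sets were called. The block raised the count at an unadjusted p under 0.05 to 1 higher and 5 lower, against 9.97% and 6.61% of all probe sets. The 1 was PRA1.E and the 5 were PRA1.A1, SEC1A, VPS24.1, NET1B and NET1D.

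The differences were small. Across the 47 genes, apl minus wildtype ran from -0.72 to 0.62 log2 units, and 36 of the 47 lay within 0.25 of 0. A 2-fold difference is 1 log2 unit. The limma 95% intervals are from the fit without the replicate block and are not adjusted for the number of genes. They lay within 1 log2 unit of 0 on both sides for 41 of the 47. The 6 whose interval reached further were PRA1.B5, PRA1.E, NET1B, NET1D, NET2D and NET3C. With the block the SE of these 6 was smaller, 0.15 to 0.28 against 0.28 to 0.43. Among all singly named genes, 70.8% had an interval within 1 log2 unit of 0 without the block. Among those above the median signal of every array, the share was 81.4% of singly named genes and 88.2% of the 34 such members.

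**Figure D1:**
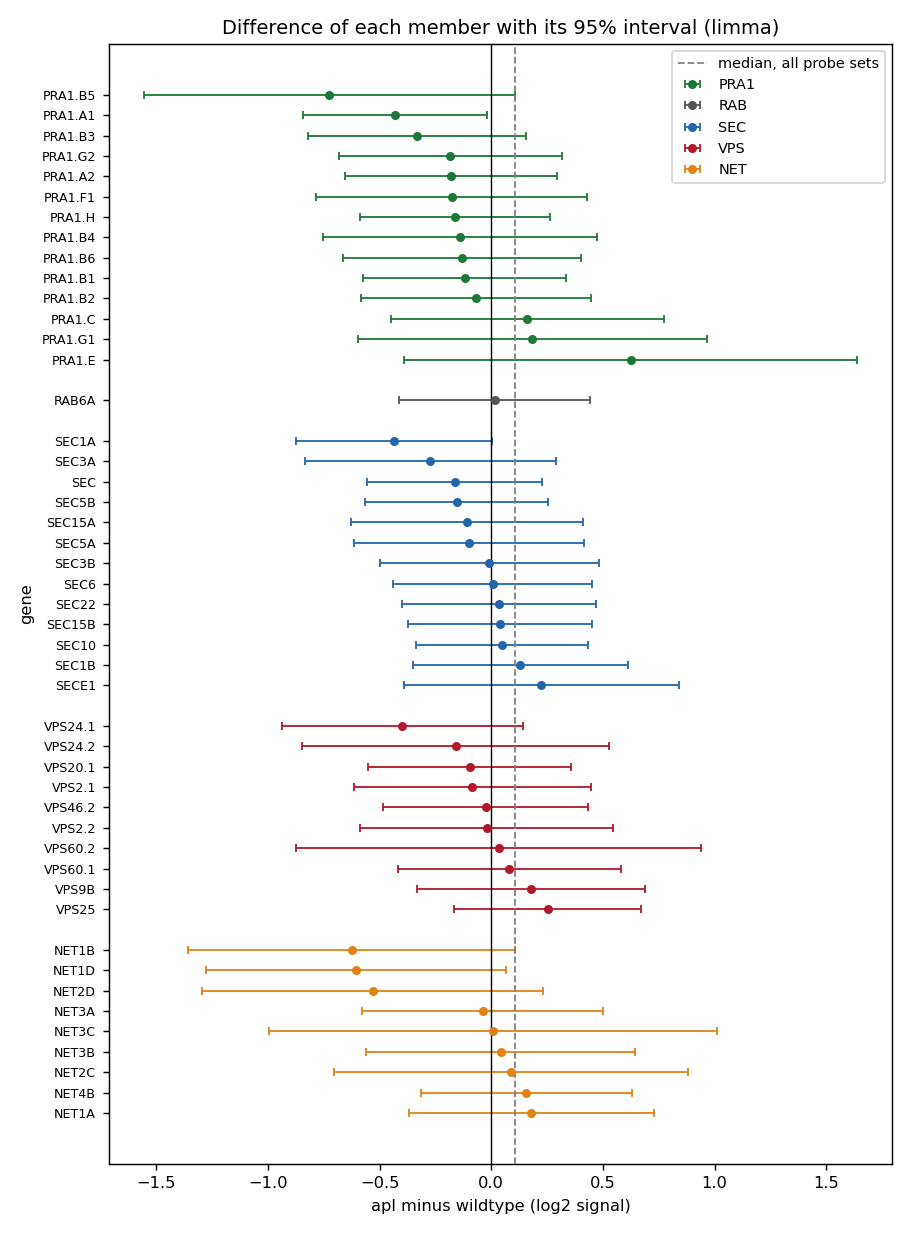
Difference in log2 signal, apl minus wildtype (x axis), for each of the 47 genes (y axis), coloured by symbol prefix. Points are differences of group means of 3 arrays and bars are limma 95% intervals without the replicate block. The dashed line is the median of all probe sets, 0.10. PRA1.B5 lies lowest at -0.72 and PRA1.E highest at 0.62, and 1 interval, that of PRA1.A1, does not include 0.

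More of these genes lay below 0 than above it. The median was -0.07, with 28 of 47 below 0 and 19 above, or 40.4% above. Over all probe sets the median was 0.10 and 64.0% lay above 0, and over singly named genes 0.08 and 61.6%. After quantile normalization 27.7% of the 47 lay above 0 against 57.2% of all probe sets, and after median centring 23.4% against 56.7%. The median of the 47 was -0.10, 0.01 and -0.06 within replicates 1, 2 and 3, and that of all probe sets 0.09, 0.10 and 0.09. No set test was run on the list.

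Some genes kept 1 direction in every pair of same-numbered arrays. The apl array was the lower one in all 3 pairs for 15 of 47 genes (31.9%), where 12.9% of all probe sets were. It was the higher one in all 3 pairs for 4 genes (8.51%), where 28.2% of all probe sets were. The groups did not overlap in 3 genes that were lower in apl, PRA1.A1, SEC1A and SEC (6.38%, against 5.32% of all probe sets), and in 1 that was higher, VPS25 (2.13%, against 9.91%).

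Wildtype mean log2 signals ran from 2.91 to 11.4 over the PRA1 genes, from 5.35 to 10.9 over the SEC genes, from 2.86 to 10.5 over the VPS genes and from 2.91 to 9.63 over the NET genes. Signals of different probe sets were not set against each other, since probes differ in how strongly they bind. Of the 47 genes, 34 lay above the median signal of every array. For 5, PRA1.F1, PRA1.G1, VPS24.2, NET2C and NET3B, both group means were below the 25th percentile on each of the arrays. There signal cannot be told from background, and a small difference says little about the transcript.

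Marker genes of other cell types gave 0 calls in limma after adjustment. At an unadjusted p under 0.05 it gave 3 of the 3 measured xylem genes and 1 of the 2 measured phloem genes, SWEET11, but 0 mesophyll and 0 stomatal genes. The 3 measured xylem genes of 5 listed, IRX15, IRX15-L and GUT2 (IRX10), lay at -2.06, -1.48 and -1.14 log2 units, or -1.67, -0.92 and -0.72 without apl replicate 3. Their summed signal was 12.5 to 13.2 on the log2 scale in wildtype and 10.6 to 12.3 in apl, with apl replicate 3 lowest. The 2 measured phloem genes of 5, SWEET11 and OPS, lay at 2.25 (1.47 without wildtype replicate 3) and 0.55, with a summed log2 signal of 8.04 to 10.4 in wildtype and 10.5 to 11.8 in apl. The 2 measured mesophyll genes of 5, RCA and LHCB4.1, which mark the labelled cotyledon tissue, gave 10.3 to 11.1 and 10.6 to 10.7. The 3 stomatal genes of 3 gave 7.09 to 7.90 and 6.96 to 7.40. Fewer cells of a type and less RNA per cell cannot be told apart in such samples.

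PRA1 proteins are small membrane proteins that bind prenylated Rab GTPases along the secretory and endosomal route. Of the 14 PRA1 genes, 11 lay below 0 and 3 above, with a median of -0.15, and 0 were called in either direction (limma). PRA1.A1 (AT5G02040) had log2 signals of 10.0, 10.3 and 10.1 in wildtype and 9.62, 9.78 and 9.63 in apl. All 3 apl arrays were below all 3 wildtype arrays, with a narrow spread in each group. Its difference was -0.43 (SE 0.18, n = 3 per group), a 1.35-fold lower signal, with a 95% interval of -0.84 to -0.02 and a Benjamini-Hochberg adjusted p of 0.529 (limma). Over the alternative settings the adjusted p ran from 0.237 to 0.912.

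PRA1.B5 (AT5G01640) had 6.80, 7.98 and 7.72 in wildtype and 6.77, 7.13 and 6.42 in apl. Wildtype replicate 1 lay among the apl arrays, so the groups overlap. The difference was -0.72 (SE 0.35, limma adjusted p = 0.628), and it was -1.08 without wildtype replicate 1 and -0.48 without wildtype replicate 2. Within pairs it was -0.03, -0.85 and -1.30 for replicates 1 to 3.

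PRA1.E (AT1G08770) differed the other way. Its signals were 3.16, 4.13 and 4.53 in wildtype and 3.89, 4.86 and 4.93 in apl. Both replicate 1 values were below the 25th percentile of their array, 3.93 in wildtype and 4.03 in apl. All 6 values were below the array medians, which ran from 6.05 to 6.25. The groups overlap because both replicate 1 arrays were low, while each apl array was above the wildtype array of its number, by 0.73, 0.73 and 0.41. The difference was 0.62 (SE 0.43, limma adjusted p = 0.747, or 0.169 with the replicate block), and it was 0.23 without wildtype replicate 1 and 0.96 without apl replicate 1. PRA1.E is the 1 member that lies in a run of neighbouring genes on chromosome 1, AT1G07650 to AT1G09230, whose 80 named genes had a median difference of 0.71, and 0.73, 0.72 and 0.72 within the pairs. Whether the value of PRA1.E goes with its place in the run was not tested.

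The other 11 PRA1 genes differed by -0.33 to 0.18. PRA1.B3 (AT5G05380) differed by -0.33 (SE 0.21), with 6.04, 6.04 and 6.26 in wildtype and 5.57, 6.08 and 5.68 in apl. PRA1.G2 differed by -0.18, PRA1.A2 by -0.18, PRA1.F1 by -0.18, PRA1.H by -0.16 and PRA1.B4 by -0.14. In these 6 genes the groups overlapped. PRA1.B6 differed by -0.13, PRA1.B1 by -0.12 and PRA1.B2 by -0.07, while PRA1.C lay at 0.16 and PRA1.G1 at 0.18. PRA1.C, dim at group means of 3.64 in wildtype and 3.80 in apl, has no locus in the RefSeq table used for names. Of PRA1 genes, 5 probe sets are shared with another gene in the annotation and were left out. They belong to PRA1.A3, PRA1.F4, PRA1.A2 and PRA1.H.

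RAB6A (AT2G44610), a Rab GTPase of the Golgi, had nearly the same mean in both genotypes. It had log2 signals of 11.7, 11.8 and 11.9 in wildtype and 11.6, 11.9 and 11.9 in apl. The difference was 0.02 (SE 0.18, limma adjusted p = 0.990), with a 95% interval of -0.41 to 0.44, or 0.75-fold to 1.36-fold. Its sign turned under other scalings, to -0.06 after quantile normalization and -0.04 after median centring. VPS9B (AT5G09320), a relative of the exchange factor that activates Rab GTPases of endosomes, had 5.42, 5.45 and 5.32 in wildtype and 5.84, 5.67 and 5.21 in apl. Apl replicates 1 and 2 lay above wildtype and apl replicate 3 below it, for a difference of 0.18 (SE 0.22).

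The exocyst is an octameric tether for vesicles at the plasma membrane. Among the SEC genes, 8 encode some of its subunits, with paralogues for SEC3, SEC5 and SEC15, and SEC8 is not among them. These 8 had a median difference of -0.06, with 5 below 0 and 3 above, and all 8 intervals lay within 1 log2 unit of 0. SEC3A (AT1G47550), of the subunit that binds plasma membrane lipids, had 9.61, 9.52 and 9.16 in wildtype and 8.84, 9.49 and 9.14 in apl. Only apl replicate 1 stood away from its wildtype partner, and the groups overlap. The difference was -0.27 (SE 0.24, limma adjusted p = 0.814), and it was -0.12 without apl replicate 1, -0.44 without apl replicate 2 and -0.18 without wildtype replicate 1.

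SEC3B (AT1G47560) is the next gene to SEC3A on chromosome 1. It had 7.61, 7.20 and 7.08 in wildtype and 7.36, 7.36 and 7.14 in apl, a difference of -0.01 (SE 0.21). The overlap was complete, and probe sequences were not used here, so signal shared between the neighbouring copies cannot be told apart. SEC10 (AT5G12370), a core subunit, had the narrowest spread of the 8: 10.6, 10.6 and 10.5 in wildtype and 10.6, 10.7 and 10.6 in apl. Its difference was 0.05, with a 95% interval of -0.34 to 0.43. SEC5B differed by -0.16, SEC15A by -0.11 and SEC5A by -0.10. The core subunit SEC6 lay at 0.01 and SEC15B at 0.04, each with overlapping groups. Another subunit from outside the symbol rule, EXO84B, differed by -0.12 (SE 0.19).

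Sec1/Munc18 proteins clasp SNARE complexes during fusion. SEC1A (AT1G02010) had 7.33, 7.37 and 7.67 in wildtype and 7.13, 6.93 and 6.99 in apl. All apl arrays were below all wildtype arrays. The difference was -0.44 (SE 0.19, n = 3 per group), a 1.35-fold lower signal, with a 95% interval of -0.87 to 0.002 (limma adjusted p = 0.558), and the adjusted p was 0.283 to 0.840 over the alternative settings. SEC1B (AT4G12120), its paralogue, had 8.39, 8.61 and 8.26 in wildtype and 8.36, 8.80 and 8.49 in apl, a difference of 0.13 (SE 0.20). The log2 ratio of SEC1A to SEC1B differed by -0.57 between genotypes, with an exact 2-sided permutation p of 0.200 (adjusted 0.800 over 12 gene pairs). That test treats the arrays as unpaired, and the smallest p that 3 arrays against 3 allow is 0.1. Within the pairs of replicates 1 to 3 the ratio differed by -0.17, -0.62 and -0.90, lower in apl each time. SEC3A to SEC3B (-0.53, -0.18 and -0.08) and PRA1.A1 to PRA1.A2 (-0.28, -0.16 and -0.31) were also lower each time. In the other SEC, VPS and PRA1 gene pairs the direction was mixed.

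Of 16 other SNARE and Sec1/Munc18 genes listed, 3 were measured, with 0 called (limma) and a median of -0.01. KEU (AT1G12360), KEULE, which works with the syntaxin of the dividing cell plate, had 11.1, 11.2 and 11.0 in wildtype and 10.9, 10.8 and 10.7 in apl. Its groups did not overlap, as for SEC1A, and the difference was -0.29 (SE 0.17, limma adjusted p = 0.694). ATSLY1, of endoplasmic reticulum to Golgi transport, differed by -0.01 (SE 0.17), and ATYKT62 by 0.09 (SE 0.27) at a signal below the 25th percentile on each of the arrays. SEC22 (AT1G11890), the SNARE among the 47 genes, also acts between endoplasmic reticulum and Golgi. Its signals were 10.4, 10.5 and 10.6 in wildtype and 10.3, 10.7 and 10.6 in apl, a difference of 0.03 (SE 0.18).

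Of 16 clathrin, dynamin, exocyst and ARF regulator genes listed, 3 were measured, EXO84B, DL1B and DL1D, with 0 called (limma) and a median of 0.12. Both DL1 genes encode dynamin-related proteins, which pinch membranes. DL1D differed by 0.51 (SE 0.20, limma adjusted p = 0.509), with all apl arrays above all wildtype arrays, but both means were below the 25th percentile on each of the arrays. DL1B differed by 0.12 (SE 0.25).

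**Figure D2:**
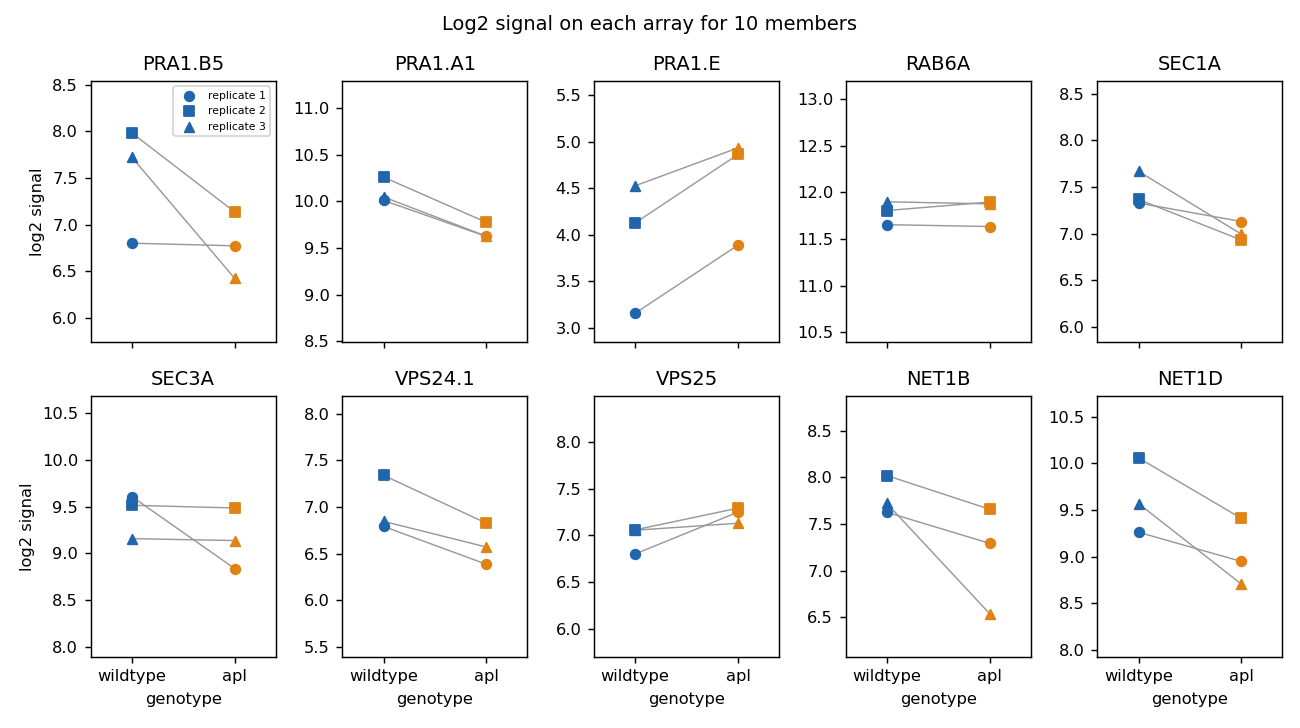
Log2 signal on each array (y axis, of equal height in every panel) by genotype (x axis) for 10 genes. Markers give the replicate number and grey lines join arrays of the same number. PRA1.A1 and SEC1A have all apl arrays under all wildtype arrays, VPS25 has them all above, and the other 7 overlap.

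ESCRT-III proteins form the filaments that cut vesicles into endosomes, and ESCRT-II starts their assembly. The 8 ESCRT-III genes had a median difference of -0.06, with 6 below 0 and 2 above, and 0 were called (limma). VPS24.1 (AT5G22950) had 6.79, 7.34 and 6.85 in wildtype and 6.39, 6.83 and 6.57 in apl. Each apl array was below its wildtype partner, by -0.41, -0.51 and -0.28, although apl replicate 2 reached into the wildtype range. The difference was -0.40 (SE 0.23, limma adjusted p = 0.691, or SE 0.14 and 0.268 with the replicate block). It was -0.22 without wildtype replicate 2.

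VPS24.2, the paralogue, was dim, and its difference of -0.16 (SE 0.29) rests on signals of 3.03, 2.72 and 2.83 in wildtype and 2.11, 3.16 and 2.83 in apl. VPS20.1 differed by -0.10, VPS2.1 by -0.09, VPS46.2 by -0.03 and VPS2.2 by -0.02. VPS60.1 lay at 0.08. VPS60.2 (AT5G04850) had 6.47, 7.55 and 7.36 in wildtype and 6.54, 7.61 and 7.33 in apl. Arrays of the same number lay within 0.07 of each other, while replicate 1 stood apart in both genotypes. Its difference was 0.03 (SE 0.38, or 0.13 with the replicate block).

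VPS25 (AT4G19003), the ESCRT-II subunit measured, had 6.80, 7.06 and 7.06 in wildtype and 7.25, 7.29 and 7.13 in apl. All apl arrays lay above all wildtype arrays, the 1 case among the 47 genes. The difference was 0.25 (SE 0.18, limma adjusted p = 0.752), with a 95% interval of -0.17 to 0.67, and it was 0.17 without wildtype replicate 1.

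NET proteins bind actin through a shared domain and differ in the membrane they reach: NET1A is known from the plasma membrane and plasmodesmata, NET2 proteins from pollen, NET3B and NET3C from the endoplasmic reticulum and NET4B from the vacuole. The 9 NET genes had a median of 0.01 and a mean of -0.15, with 4 below 0 and 5 above, and 0 were called (limma). NET1B (AT4G14760) had 7.63, 8.02 and 7.72 in wildtype and 7.29, 7.66 and 6.54 in apl. Apl replicate 3 was far the lowest and apl replicate 2 lay inside the wildtype range. The difference was -0.63 (SE 0.31, limma adjusted p = 0.640, or SE 0.22 and 0.280 with the replicate block). It was -0.31 without apl replicate 3.

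NET1D (AT1G03080) had 9.26, 10.1 and 9.57 in wildtype and 8.95, 9.41 and 8.71 in apl. Each apl array was below its wildtype partner, by -0.31, -0.65 and -0.86, and apl replicate 2 lay above wildtype replicate 1. The difference was -0.61 (SE 0.28, limma adjusted p = 0.613, or SE 0.17 and 0.212 with the replicate block). It was -0.39 without wildtype replicate 2. NET2D (AT2G22560) had 7.13, 7.14 and 6.81 in wildtype and 6.51, 7.10 and 5.87 in apl, with apl replicate 3 again lowest. Its difference was -0.53 (SE 0.32, limma adjusted p = 0.715), and leaving out apl replicate 3 gave -0.22, leaving out apl replicate 2 -0.83. In these 3 genes apl replicate 3 was the lowest of the 6 arrays, as it was for the summed xylem markers given above. The same array was lowest for the summed stomatal markers and for the summed further lists of SNAREs and of dynamins. It was not lowest for the summed mesophyll or phloem markers or the actin genes listed below. Among single genes it was lowest in 13 of the 47 (27.7%) and in 23.4% of all singly named genes. The part of xylem cells in these values was not tested.

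NET1A (AT3G22790) lay on the other side of 0 from these relatives. It had 6.61, 6.47 and 6.10 in wildtype and 6.60, 6.84 and 6.28 in apl, a difference of 0.18 (SE 0.23). The log2 ratio of NET1A to NET1B differed by 0.81 between genotypes, from a range of -1.62 to -1.01 in wildtype to -0.82 to -0.26 in apl. That of NET1A to NET1D differed by 0.79, also with no overlap. Within pairs the first differed by 0.32, 0.73 and 1.36 and the second by 0.30, 1.02 and 1.04. Both had an exact 2-sided permutation p of 0.1, the smallest possible, and 0.600 when adjusted over the 12 gene pairs. The ratio of NET1B to NET1D differed by -0.02 (exact permutation p = 0.900, adjusted 0.982). In the other 9 pairs, which join same-named paralogues among SEC, VPS and PRA1 genes, the ratio differed by -0.57 to 0.37, with exact permutation p of 0.200 to 1.

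NET3C (AT2G47920), which links endoplasmic reticulum, plasma membrane and actin, varied mainly by replicate number. Its signals were 8.63, 7.74 and 7.38 in wildtype and 8.51, 8.01 and 7.26 in apl. Replicate 1 was high and replicate 3 low in both genotypes. The difference was 0.01 (SE 0.43, or 0.15 with the replicate block). NET3A differed by -0.04, NET3B by 0.04, NET2C by 0.09 and NET4B (AT2G30500) by 0.16. NET4B had 6.21, 6.51 and 6.27 in wildtype and 6.55, 6.24 and 6.67 in apl, so that the pairs did not share a direction.

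Of 34 listed actin and actin-binding genes, 2 were measured, ACT11 and ACT12, with 0 called (limma) and a median of -0.28. The other listed actin genes, among them ACT2, ACT7 and ACT8, were not measured, so actin as a whole is not described. ACT11 had 8.71, 9.30 and 9.09 in wildtype and 8.06, 9.25 and 8.21 in apl, a difference of -0.53 (SE 0.35, limma adjusted p = 0.739), with apl replicate 2 inside the wildtype range. Leaving out apl replicate 2 gave -0.90, and leaving out apl replicate 1 gave -0.31. ACT12 differed by -0.02 (SE 0.30).

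The symbol rule also took in 2 genes known for other roles. SEC (AT3G04240), SECRET AGENT, encodes an enzyme that attaches N-acetylglucosamine to proteins. It had 10.9, 11.0 and 10.9 in wildtype and 10.8, 10.8 and 10.7 in apl, with no overlap. Its difference was only -0.16 (SE 0.17, limma adjusted p = 0.842). SECE1 (AT4G14870), of a protein translocation channel in chloroplasts, differed by 0.22 (SE 0.26). Without both, the median of the remaining genes was -0.07.

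Arrays with the same replicate number often lay together. In 41 of the 47 (87.2%, against 77.0% of all probe sets), the range between the means of the 3 replicate numbers exceeded the difference between genotypes. A range over 3 means is wider by nature than a difference of 2. The lowest of the 6 arrays was apl replicate 1 in 14 genes (29.8%), apl replicate 3 in 13 (27.7%) and wildtype replicate 2 in 1 (2.13%), VPS2.2. Over all probe sets those shares were 10.3%, 19.7% and 19.9%. The 14 include 5 of the 8 ESCRT-III genes and 5 of the 14 PRA1 genes. The 13 include 5 of the 9 NET genes and 5 of the 13 SEC genes. PRA1.C held the same value, 3.87, on both replicate 1 arrays and VPS24.2 the same, 2.83, on both replicate 3 arrays.

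**Figure D3:**
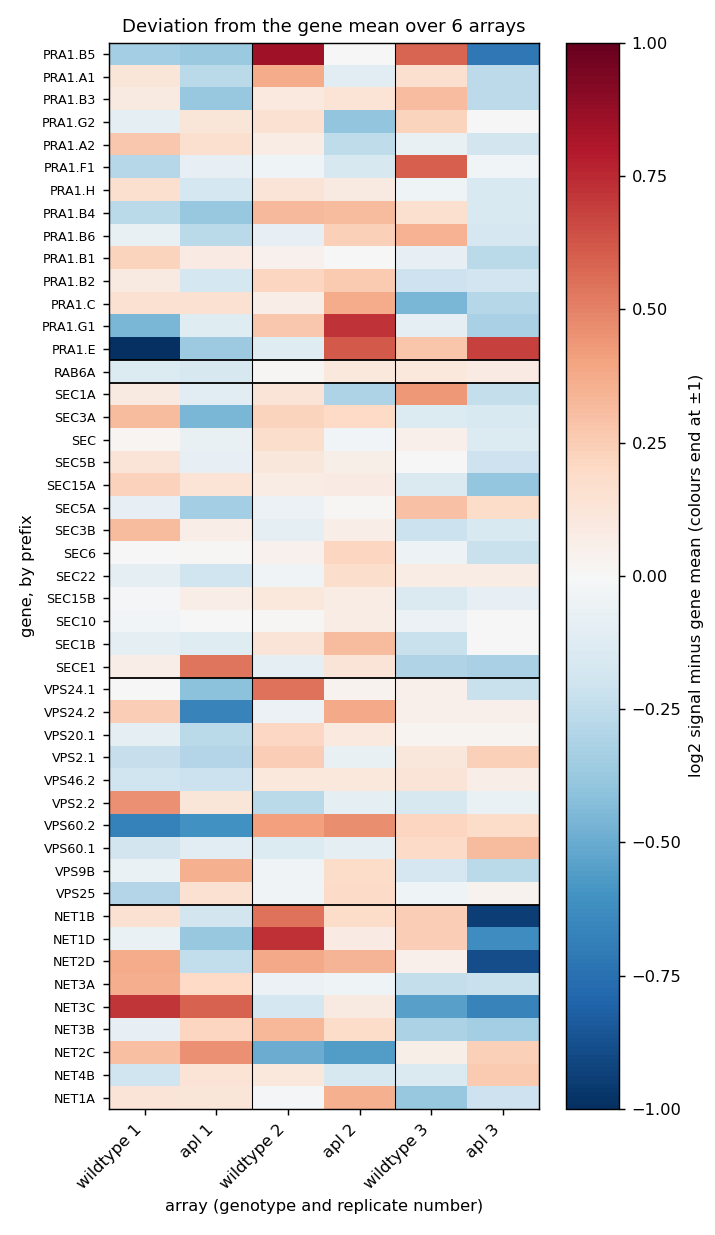
Log2 signal minus the mean of the gene over 6 arrays (colour, ending at 1 unit either way) for each of the 47 genes (rows, grouped by prefix) on each array (columns, paired by replicate number). NET1B, NET1D, NET2D and PRA1.B5 have their lowest value on apl replicate 3, while VPS60.2 shows the same colour on both arrays of each number.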

How the data were processed

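Deposited were log2 signals for 38408 probe sets on 6 Affymetrix arrays, each hybridised with biotin-labelled RNA of 1 sample. Per the submitters' processing notes the authors made them with RMA, of unstated version and unstated grouping of arrays. RMA gives no detection call and shrinks differences of dim transcripts, and the number of arrays limits the precision. Names come from the platform annotation, in which 16722 probe sets have 1 gene, 759 several and 20927 none. Of the genes described, 46 of 47 have a locus in RefSeq's table for TAIR10.1. Sequences were not used here.

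With no added scaling, apl was set against wildtype in limma 3.58.1 (R 4.3.3; lmFit, eBayes; 2-sided; all probe sets), a fit checked on simulated data. Genes described with every array are those at an unadjusted p under 0.05 and the 2 largest differences of each prefix, with others added after their values were seen. The genes, their roles, the paralogue pairs and the 3 further gene lists and markers were chosen with earlier results of these data known. Summed marker signals are log2 of summed unlogged signals. Permutation tests used scipy 1.17.1 and figures matplotlib 3.10.9.

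Both groups share replicate numbers. Deviations from group means correlated at 0.40 to 0.45 between same-numbered arrays in all 3 pairs and at -0.29 to -0.16 otherwise, and same-numbered arrays held 740 to 940 identical values, against 0 to 2. By the rule of over 0.1 in every pair the numbers were taken to pair the arrays, from the data and not from the labels, and whether it arose in the processing was not tested. A fit with the replicate block is given where it moves a count and for some single genes. Otherwise the SE, interval and adjusted p of a gene are from the fit without the block. That fit counts the spread between replicate numbers as error. Separate cultures are not stated in the labels, and the p-values cover no more than the spread among these arrays, possibly a technical one. As alternatives, arrays were quantile-normalized, median-centred or weighted, dim probe sets were left out, and the prior was made robust with a trend. Others were averaging the probe sets of a gene, other thresholds, leaving out each array and leaving out the chromosome 1 run. Leaving out SEC and SECE1, and the dim filter for single prefixes, were added after the data were seen.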

Additional observations from a re-analysis of the deposited data

How the results depend on the processing

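The 47 genes had 0 higher and 0 lower calls under every alternative run, including adjusted p under 0.10, with 0 to 1 higher and 0 to 5 lower at an unadjusted p under 0.05 and a smallest adjusted p of 0.169 with the replicate block (limma). Their median, -0.07, ranged from -0.13 to -0.03, and without 1 array from -0.10 to -0.03. No prefix median moved by more than the spread between replicates, and without 1 array they ranged from -0.18 to -0.11 for PRA1, -0.10 to 0.06 for SEC, -0.10 to 0.06 for VPS and -0.17 to 0.10 for NET. RAB6A, uncalled at 0.02, was -0.0038 with array weights, -0.041 after median centring, -0.058 after quantile normalization and -0.050 to 0.10 without 1 array. The other 9 genes plotted by array, PRA1.B5, PRA1.A1, PRA1.E, SEC1A, SEC3A, VPS24.1, VPS25, NET1B and NET1D, kept their sign in every setting run that held them. The block, the robust prior with a trend, the dim filters and averaging of probe sets could not change these differences. The 9 were also picked for large differences or a small p in the same data, so a kept sign says little. Over all probe sets, the 30 higher and 202 lower calls became 81 and 340 under the replicate block. A robust prior with a variance trend gave 98 and 314, the threshold of 0.01 gave 2 and 35, and that of 0.10 gave 97 and 321. Leaving out the dimmest 25% or 50% of probe sets gave 61 or 92 higher calls, with fewer tests. Without 1 array there were 1 to 22 higher and 20 to 308 lower calls. What caused the remaining moves was not tested. For the 5 dim genes little can be said without detection calls, and PRA1.E was left out by the 50th percentile filter.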
